A study of Mus musculus with 12 samples.

Results

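Adrenergic receptors bind noradrenaline and adrenaline, and muscarinic receptors bind acetylcholine. The genes described here are 9 of these receptors, chosen by name from a table of 55679 genes: the beta receptors Adrb1 and Adrb3, the alpha-1 receptors Adra1a, Adra1b and Adra1d, the alpha-2 receptor Adra2a, and the muscarinic receptors Chrm1, Chrm2 and Chrm3. RNA was sequenced from whole lung and whole heart of 6 untreated male mice on the 129S6/SvEvTac background, aged from 9 weeks to about 3 months, so that each mouse gave 1 lung library and 1 heart library. The 3 WT mice carried intact Adam19. The 3 KO mice were homozygous for an Adam19-tdTomato allele in every cell, in which a tdTomato reading frame and a hygromycin resistance cassette in antisense take the place of exons 6 and 7. The mouse identifiers share no prefix between genotypes, so a difference between prefixes and a difference between genotypes cannot be told apart.

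All 9 products are G protein-coupled receptors. Beta receptors act through Gs and adenylyl cyclase, and in the heart the Adrb1 product raises rate and force of contraction. Alpha-1 receptors and the M1 and M3 receptors act through Gq and phospholipase C, and M3 drives contraction of airway smooth muscle. Alpha-2 receptors and M2 act through Gi, and M2 slows the heart by opening the potassium channel made of the Kcnj3 and Kcnj5 products. Methacholine, the agonist that the study gave to live mice to measure airway responsiveness, acts on muscarinic receptors, and the libraries here come from mice without that challenge.

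The coding stretch around the aspartate-arginine-tyrosine codons, at the inner end of the third membrane helix where these receptors meet the G protein, is printed for each member because it is the part that all 9 share. Each line holds 60 bases of coding sequence from GRCm39 with the 9 bases of those codons in capitals.
Adrb1: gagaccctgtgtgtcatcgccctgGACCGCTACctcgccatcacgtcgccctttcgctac
Adrb3: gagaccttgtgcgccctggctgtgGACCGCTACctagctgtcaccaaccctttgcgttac
Adra1a: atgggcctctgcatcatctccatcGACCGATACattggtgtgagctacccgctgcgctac
Adra1b: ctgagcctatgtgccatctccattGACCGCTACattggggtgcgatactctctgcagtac
Adra1d: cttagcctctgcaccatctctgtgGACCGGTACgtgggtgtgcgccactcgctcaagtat
Adra2a: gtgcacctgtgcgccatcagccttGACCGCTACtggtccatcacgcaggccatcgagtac
Chrm1: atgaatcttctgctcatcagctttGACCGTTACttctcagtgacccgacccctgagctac
Chrm2: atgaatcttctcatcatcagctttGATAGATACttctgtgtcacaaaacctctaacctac
Chrm3: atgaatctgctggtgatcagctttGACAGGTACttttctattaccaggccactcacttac

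The 9 coding sequences encode 404 to 589 residues, with Adrb3 the shortest and Chrm3 the longest. Between the aspartate-arginine-tyrosine motif and the tryptophan-proline motif of the sixth helix, a stretch that holds the third inner loop, Chrm3 has 335 residues, Chrm2 has 276, Adra2a has 253 and Chrm1 has 252, while the beta and alpha-1 receptors have 158 to 167. Over the 36 pairs, aligned protein identity was highest between Chrm1 and Chrm3, at 60.8%, followed by Adra1b and Adra1d at 55.7% and Adrb1 and Adrb3 at 55.1%. It was lowest between Adra2a and Chrm2, at 27.2%. No transcript of another gene matched a member on the same strand at 95% identity or more over at least 300 bases.

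The 12 libraries held between 17674788 and 35862932 summed estimated counts. Of the summed gene values on the linear scale, 1 noncoding RNA, Rn7s1, took 2.1% to 34.0% in lungs, both extremes in WT. In hearts it took 2.7% to 11.8%. Mitochondrial genes took 1.3% to 1.5% in lungs and 9.1% to 22.1% in hearts, so the depth left for other genes was uneven. Adam19 checked the labels: it was 9.14, 9.41 and 9.12 in WT lungs against 4.44, 3.21 and 3.50 in KO lungs on the log2 scale of the gene table, and 9.17, 9.25 and 10.27 in WT hearts against 6.67, 6.01 and 6.56 in KO hearts. Cardiac muscle markers were called higher in heart for 6 of 6 genes, and airway epithelium markers higher in lung for 3 of the 3 tested. The lungs were not free of heart muscle RNA, since the summed level of the 6 cardiac muscle markers was 13.40 to 14.66 in lungs and 20.76 to 21.04 in hearts, and no marker was at 0. Heart WT replicate 3 stood apart, with a summed level of the 4 atrial markers of 14.80 against 16.03 to 17.20 in the other hearts and 2 of 6 neuron markers at 0. Without it the same 8 receptors were called between the tissues, with lung minus heart at 2.58 for Adra2a and 1.44 for Chrm1, the 2 receptors that were at 0 in that heart. In bulk tissue, fewer cells of a type and less RNA per cell cannot be told apart.

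TPM values computed from the transcript table, which divide estimated counts by transcript length and bring each library to the same total, put the receptors on 1 scale. In the lung Adrb1 had the highest median TPM, 28.0 (range 12.2 to 40.0 over 6 lungs), followed by Chrm2 at 15.2, Adra1a at 12.5, Adrb3 at 5.19 and Chrm3 at 3.00. Adra1d (1.17), Adra1b (0.938), Adra2a (0.693) and Chrm1 (0.357) were lowest. The ranges of Adrb1 and Chrm2 overlapped, as did those of each neighbouring pair from Adrb3 to Adra2a, whereas Chrm2 and Adra1a, Adra1a and Adrb3, and Adra2a and Chrm1 did not overlap. In the heart Chrm2 was far above the others, at a median TPM of 99.5 (77.0 to 122). Adra1b at 22.8 (19.2 to 34.3) and Adra1a at 13.9 (11.8 to 18.8) came next without overlap, and Adrb1 at 12.5 overlapped Adra1a. Adra1d (0.997), Chrm3 (0.816) and Adrb3 (0.642) overlapped one another, and Adra2a (0.0468) and Chrm1 (0.0442) were close to the limit of detection. Heart WT replicate 3 was at 0 for both, and heart KO replicate 3 was also at 0 for Adra2a.

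**Figure D1:**
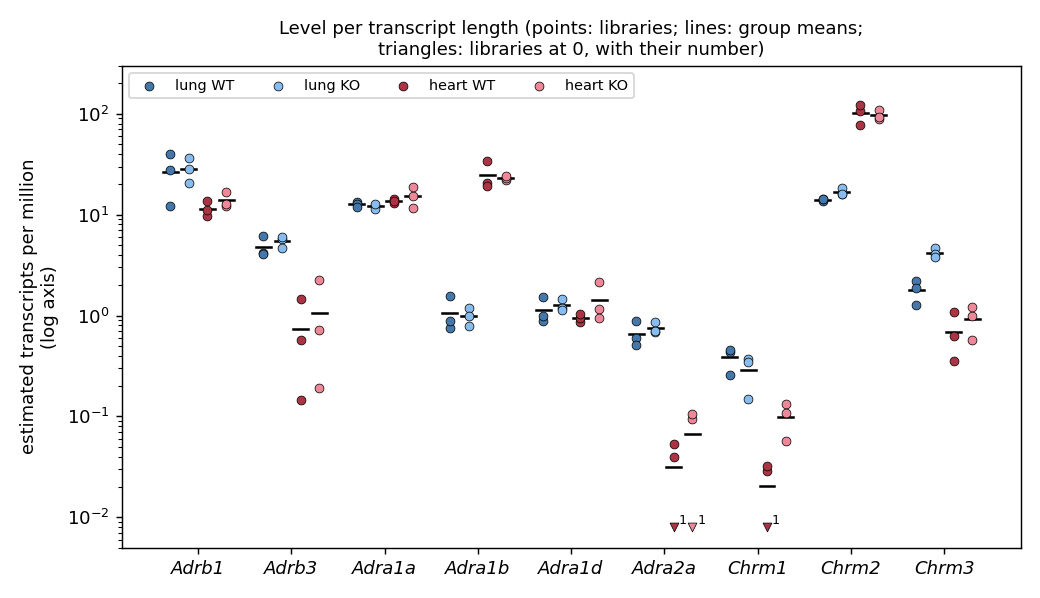
TPM on a log axis for each receptor in the 12 libraries, with lines at the group means (n = 3) and triangles for libraries at 0. Chrm2 in hearts lies between 77.0 and 122, and Adra1b is about 1 in lungs and 19.2 to 34.3 in hearts.

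Lung was compared with heart over the 12 libraries with limma on the deposited log2 gene values, as the mean of the WT and KO differences. This fit did not pair the lung and heart of a mouse. A gene was called at an adjusted p (Benjamini-Hochberg over all 17666 genes tested) under 0.05 and a fold change of at least 1.5. Of the 9 receptors, 4 were higher in lung, where 40.4% of all genes tested were called, and 4 were higher in heart, where 25.6% were. Being called was thus common among all genes, and the receptors are described by the size of their differences, which varied widely. Adra1b was 39.2-fold and Chrm2 11.3-fold higher in heart, and Adra2a was 7.49-fold and Adrb3 4.40-fold higher in lung. Lung and heart libraries did not overlap for 6 of 9 receptors, beside 57.4% of all genes. The median lung minus heart difference of all genes was 0.31 (log2) on the deposited values and 0.10 after quantile normalization, and the share of calls that were higher in lung was 61.2% and 53% in turn.

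**Figure D2:**
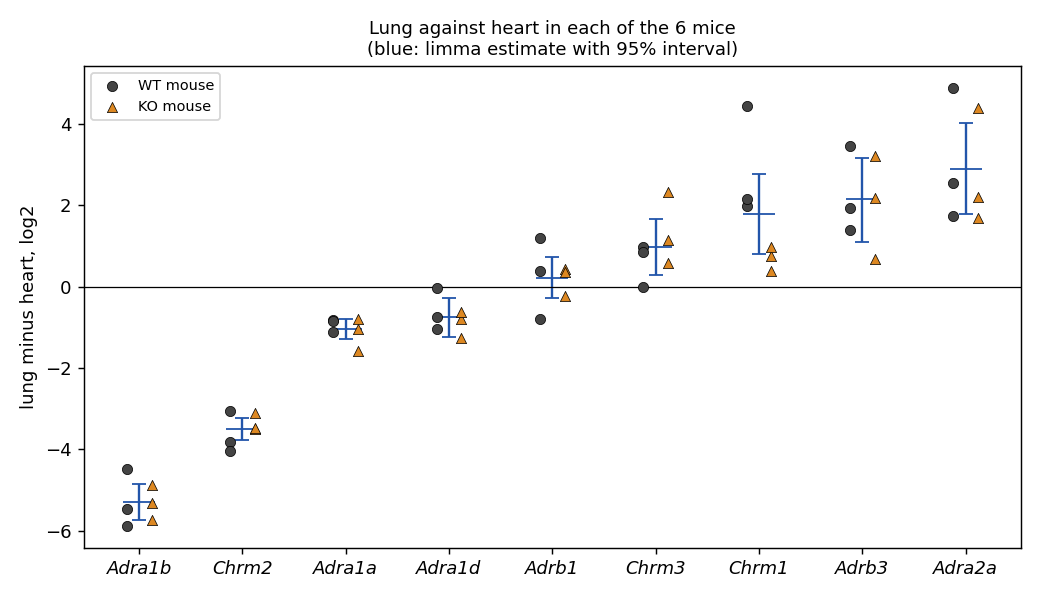
Lung minus heart difference (log2) of each receptor in each of the 3 WT mice (circles) and 3 KO mice (triangles), with the limma estimate and its 95% interval in blue. Adra1b, Chrm2, Adra1a and Adra1d lie below 0 in 6 of 6 mice, Adrb3, Adra2a and Chrm1 lie above 0 in 6 of 6 mice, and Adrb1 lies on both sides.

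Adrb1 (ENSMUSG00000035283.6, chr19:56710631-56721545, forward strand of GRCm39), the main beta receptor of heart muscle, was at 9.60, 9.06 and 8.09 in WT lungs and 9.52, 9.16 and 8.62 in KO lungs. It was at 8.40, 8.69 and 8.89 in WT hearts and 9.10, 8.81 and 8.86 in KO hearts. The lungs spread more widely than the hearts and the tissues overlapped. Lung minus heart was 0.22 (SE 0.23, 95% interval −0.28 to 0.72), which limma did not call (adjusted p = 0.407), and it ranged from −0.80 to 1.20 over the 6 mice. The size depended on the scale. In TPM the lungs (12.2 to 40.0, median 28.0) overlapped the hearts (9.69 to 16.8, median 12.5) and had the clearly higher median. Nearly all its counts lay on its single-exon coding transcript, 99.7% in WT lungs and 99.9% in KO lungs.

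Adrb3 (ENSMUSG00000031489.16, chr8:27715443-27740925, reverse strand), known from fat cells, where it drives lipolysis and heat production, was at 7.45, 6.79 and 6.97 in WT lungs and 7.37, 7.04 and 7.28 in KO lungs. In hearts it was at 6.07, 4.86 and 3.51 in WT and 6.71, 3.82 and 5.10 in KO. The hearts of both genotypes spread over about 3 log2 units, and all lay below the lowest lung. Lung was higher by 2.14 (SE 0.48, 95% interval 1.10 to 3.17, adjusted p = 0.0012), in 6 of 6 mice, and by 1.48 after quantile normalization (adjusted p = 0.00761).

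Adipocyte markers moved with Adrb3 among the hearts. The summed level of the 5 markers (Adipoq, Plin1, Cidec, Ucp1 and Cidea) was 12.76, 11.07 and 9.48 in WT hearts and 12.99, 10.12 and 11.58 in KO hearts, the same order of hearts as for Adrb3, and no marker was at 0 in any library. Ucp1, the uncoupling protein of brown fat, ran from 4.58 to 11.75 among hearts. Across the 6 hearts Pearson's r between the summed markers and Adrb3 was 0.990 (exact permutation p = 0.00278, two-sided, adjusted p = 0.10 over 72 relations of 9 receptors with 4 marker lists in 2 tissues, chosen after the values were seen) and Spearman's rho was 1 (exact permutation p = 0.00278, adjusted p = 0.20). Without the 2 hearts farthest from the median marker level r was 0.993. The 3 hearts of a genotype were too few for a value within it, and neither adjusted p was under 0.05. For the 4 atrial markers r with Adrb3 across the hearts was 0.798 (exact permutation p = 0.0528, adjusted p = 0.55). In lungs the adipocyte markers spanned 9.48 to 12.03 while Adrb3 spanned 6.79 to 7.45. The part of adipose or atrial tissue in the Adrb3 values was not tested.

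**Figure D3:**
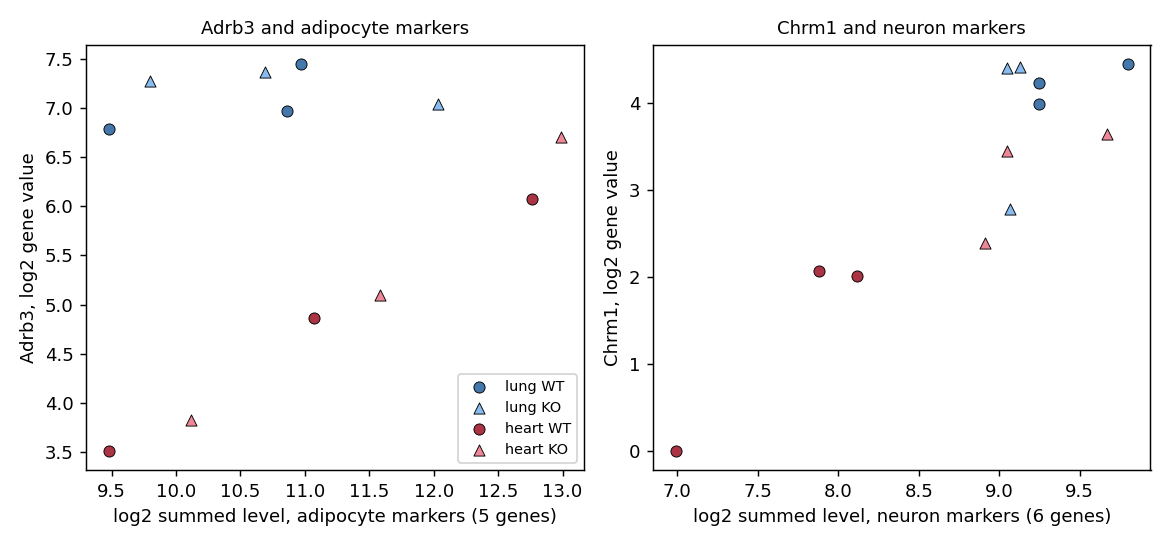
Log2 gene value of Adrb3 against the log2 summed level of 5 adipocyte markers (left) and of Chrm1 against that of 6 neuron markers (right), 1 point for each library. Among hearts Adrb3 runs from 3.51 to 6.71 in the order of the adipocyte markers, and the 3 WT hearts have both the lowest neuron marker levels (6.99 to 8.12) and the lowest Chrm1 values.

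Among the alpha-1 receptors, which raise vascular tone and act on heart muscle, all 3 were called higher in heart. Adra1a (ENSMUSG00000045875.14, chr14:66872700-67012152, forward strand) was at 8.37, 8.31 and 8.43 in WT lungs and 8.30, 8.19 and 8.30 in KO lungs, the tightest set of lung values of the 9 receptors. Hearts were at 9.20, 9.42 and 9.27 in WT and 9.34, 9.78 and 9.12 in KO, all above the lungs. Lung minus heart was −1.04 (SE 0.12, 95% interval −1.29 to −0.79, adjusted p = 2.91e-06). On the per-length scale its lungs (11.3 to 13.3) and hearts (11.8 to 18.8) overlapped, so the separation held on the gene values and not there. A 4144-nucleotide transcript of Adra1a had counts in 4 of 6 hearts, 2 of each genotype, and was at 0 in every lung.

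Adra1b (ENSMUSG00000050541.15, chr11:43665433-43792037, reverse strand) showed the largest tissue difference of the 9. It was at 3.85, 4.83 and 4.17 in WT lungs and 4.46, 4.24 and 3.84 in KO lungs, which rest on at most 32.2 estimated counts per library. It was at 9.31, 9.31 and 10.05 in WT hearts and 9.35, 9.55 and 9.59 in KO hearts, from 362.1 to 751.2 estimated counts. No lung came near a heart, and lung minus heart was −5.29 (SE 0.21, 95% interval −5.74 to −4.85, adjusted p = 1.19e-10). Adra1b lies on the same chromosome as Adam19, with 2154738 bases between the genes.

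Most Adra1b counts did not fall on its full coding transcript. The 5-exon transcript with the complete coding sequence (1545 coding bases) was at 0 in all 12 libraries. A 2-exon transcript with no annotated coding sequence (ENSMUST00000124306.2), which starts at position 43727159 inside the gene, held 90.2% of the counts in WT lungs and 83.6% in KO lungs, and 270.7 to 538.1 counts in each heart. The rest lay on a 4-exon transcript with 1386 coding bases, which was at 0 in 3 lungs. These are assignments of shared reads by the quantifier, and reads across the start were not examined. The 250 bases before the start of the 2-exon transcript (chr11:43727160-43727409, reverse strand of GRCm39) are printed because the largest tissue difference rests on counts assigned there. They overlap no annotated Adra1b exon, and capitals mark the motif matches.
Adra1b upstream: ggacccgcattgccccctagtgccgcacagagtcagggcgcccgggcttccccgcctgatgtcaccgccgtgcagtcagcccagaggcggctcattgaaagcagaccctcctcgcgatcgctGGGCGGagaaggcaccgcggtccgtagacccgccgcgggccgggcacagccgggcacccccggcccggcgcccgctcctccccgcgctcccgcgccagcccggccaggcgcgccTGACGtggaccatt

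This window has 75.2% G or C, against a median of 55.2% over the 250-base windows before 17581 of the genes tested. It holds 1 GC box (GGGCGG) and 1 core of the cyclic AMP response element (TGACG), which on either strand occur in 43.0% and 20.3% of those windows. The TATA box (TATAAA, in 9.03% of windows) occurs in none of the 9 receptor windows, and neither do the MEF2 motif (0.512%) and the CArG box (1.25%). A GATA motif (AGATAA, 8.3% of windows) occurs only before Adrb3 and an E-box (CAGCTG, 12.1%) only before Adra1a among the 9. The GC box also occurs before Adra2a and TGACG before Adrb1. The windows of Adra2a, Chrm1, Chrm2 and Chrm3 overlap annotated exons of their own gene. That of Adra2a, with its GC box, lies inside the exon of a longer Adra2a transcript of 4832 nucleotides. The motifs were searched on both strands and none of the matches overlapped another. They are matches of letters and not sites of binding.

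Adra1d (ENSMUSG00000027335.10, chr2:131385993-131404693, reverse strand), an alpha-1 receptor of large arteries, was at 5.41, 4.65 and 4.98 in WT lungs and 5.39, 5.11 and 5.0 in KO lungs. It was at 5.45, 5.70 and 5.73 in WT hearts and 6.66, 5.92 and 5.62 in KO hearts. The highest lung and the lowest heart nearly met, and lung minus heart was −0.76 (SE 0.22, 95% interval −1.24 to −0.27, adjusted p = 0.00789). The size and direction depended on the scale. After quantile normalization the difference was −1.59 (adjusted p = 2.58e-05), while in TPM the lungs (0.88 to 1.51, median 1.17) overlapped the hearts (0.861 to 2.15, median 0.997) and had the higher median. In WT mouse 1 the tissues differed by only −0.03.

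Adra2a (ENSMUSG00000033717.7, chr19:54032582-54037413, forward strand), which sits on sympathetic nerve endings and curbs noradrenaline release, was at 4.19, 3.97 and 4.89 in WT lungs and 4.74, 4.40 and 4.38 in KO lungs. In hearts it was at 1.65, 2.23 and 0 in WT and 2.56, 2.72 and 0 in KO. Every heart lay below every lung, and lung was higher by 2.90 (SE 0.52, 95% interval 1.78 to 4.03, adjusted p = 0.00021). The hearts rest on 0 to 5.5 estimated counts per library, so the size of the difference depends on the pseudocount of 1 in the values: it was 1.80 with a pseudocount of 5, and 2.24 after quantile normalization. Of the 2 other alpha-2 genes, Adra2b ran from 3.54 to 4.70 in lungs and 4.77 to 5.55 in hearts, and Adra2c from 1.72 to 2.24 in lungs and 3.57 to 4.68 in hearts. Both were called higher in heart (lung minus heart −1.13 and −2.06, limma adjusted p = 0.00112 and 3.18e-05), the opposite direction to Adra2a. In TPM the tissues overlapped for Adra2b (0.401 to 0.923 in lungs, 0.557 to 1.03 in hearts). For Adra2c they did not (0.0927 to 0.159 in lungs, 0.257 to 0.585 in hearts).

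Chrm2 (ENSMUSG00000045613.10, chr6:36364718-36505582, forward strand), the receptor through which the vagus nerve slows the heart, was the most abundant receptor of the heart. It was at 9.09, 9.13 and 9.36 in WT lungs and 9.36, 9.58 and 9.28 in KO lungs, and at 12.89, 13.18 and 12.43 in WT hearts and 12.85, 12.70 and 12.75 in KO hearts. The tissues were far apart and the spread within each was small. Lung minus heart was −3.50 (SE 0.12, 95% interval −3.77 to −3.23, adjusted p = 4.73e-11). Kcnj3 and Kcnj5, the channel subunits that M2 opens, were also called higher in heart, by −4.76 and −5.52 (limma adjusted p = 1.84e-09 and 4.54e-10). The part of the heart muscle RNA of the lung libraries in lung Chrm2 was not tested. An antisense gene, 9330158H04Rik, overlaps a Chrm2 exon and was at 8.22 to 9.19 in hearts and 3.97 to 5.56 in lungs. Likewise Gm45470, antisense to Adrb3, overlaps an Adrb3 exon and was at 4.02 to 5.33 in lungs and 0 to 2.49 in hearts. Each antisense gene was thus higher in the same tissue as its receptor. The libraries were strand-specific, but whether the quantifier used the strand is not given in the sources used here.

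Chrm3 (ENSMUSG00000046159.17, chr13:9925522-10410883, reverse strand), the receptor of airway smooth muscle and glands, was at 4.84, 5.62 and 5.59 in WT lungs and 6.76, 6.54 and 6.35 in KO lungs. It was at 3.88, 5.63 and 4.73 in WT hearts and 4.44, 5.39 and 5.78 in KO hearts. WT lungs overlapped the hearts and KO lungs did not. Lung was higher by 0.97 (SE 0.32, 95% interval 0.28 to 1.67, adjusted p = 0.0144), a call that was lost after quantile normalization (0.14, adjusted p = 0.697).

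Chrm1 (ENSMUSG00000032773.10, chr19:8640962-8662278, forward strand), best known from neurons and glands, was at 3.99, 4.23 and 4.45 in WT lungs and 4.40, 2.78 and 4.41 in KO lungs. It was at 2.01, 2.07 and 0 in WT hearts and 3.65, 2.39 and 3.45 in KO hearts. Estimated counts were 10.7 to 22.3 per lung and 0 to 12.1 per heart, so all values are of few reads. Lung was higher by 1.78 (SE 0.45, 95% interval 0.80 to 2.76, adjusted p = 0.00297), which was 1.12 with a pseudocount of 5 and was no longer called after quantile normalization (1.06, adjusted p = 0.0573). The remaining muscarinic genes Chrm4 and Chrm5 did not pass the filter in the 12-library fit, with values of 0 to 3.09 and 0 to 1.77.

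**Figure D4:**
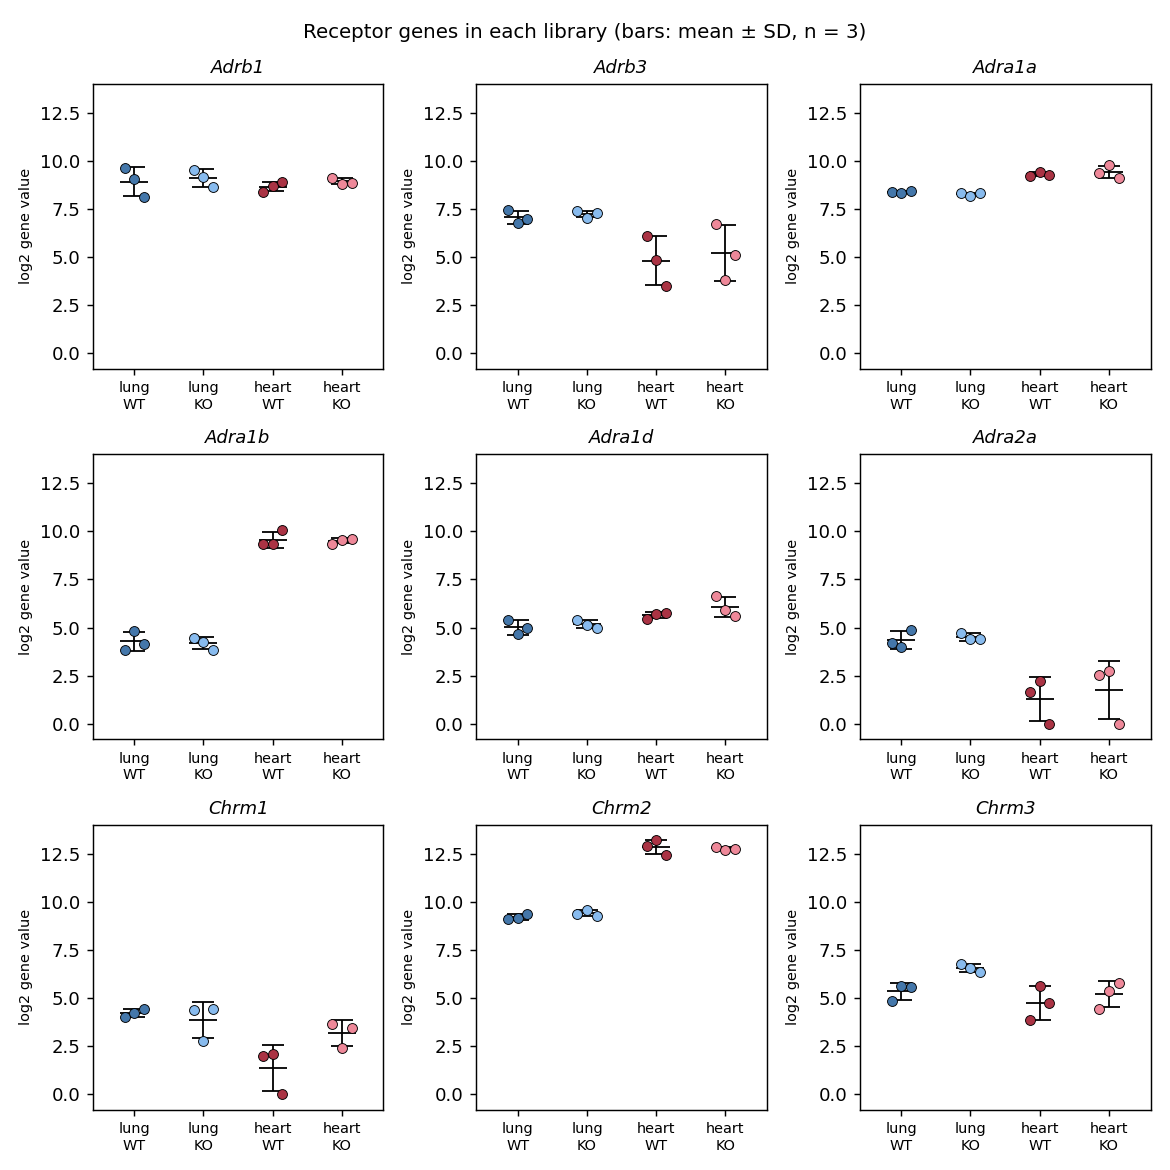
Log2 gene value of each receptor in each library, by tissue and genotype, with the group mean ± SD (n = 3). WT and KO points overlap in most panels. In the lung they are apart for Chrm3 (4.84 to 5.62 against 6.35 to 6.76) and, by a narrow margin, for Adra1a, and in the heart for Chrm1.

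Within WT mice alone, 3 receptors were called higher in lung (38.6% of all genes) and 3 higher in heart (23.7%). Within KO mice alone, 3 were higher in lung (37.3%) and 4 higher in heart (24.8%). Chrm3 was called in KO mice (1.35, SE 0.45, adjusted p = 0.0191) and not in WT mice (0.60, SE 0.45, adjusted p = 0.255). Chrm1 was called in WT mice (2.86, SE 0.64, adjusted p = 0.00154) and not in KO mice (0.70, SE 0.64, adjusted p = 0.347). Adra1d was called in KO mice (−0.90, adjusted p = 0.0233) and not in WT mice (−0.61, adjusted p = 0.104). These calls depended on the scale. In WT mice Chrm3 was called on summed transcripts (0.82, adjusted p = 0.0202), and Adra1d was called on summed transcripts (−0.81, adjusted p = 0.0301) and after quantile normalization (−1.50, adjusted p = 0.000994). In KO mice the call of Chrm3 was lost after quantile normalization (0.61, adjusted p = 0.247). Tested directly, as the KO minus WT difference in lung minus that in heart, none of these contrasts between genotypes was called. That value was 0.74 for Chrm3 (95% interval −0.65 to 2.14, adjusted p = 0.779), −2.16 for Chrm1 (−4.12 to −0.20, adjusted p = 0.623) and −0.29 for Adra1d (−1.26 to 0.68, adjusted p = 0.881). With limma 0 of 9 receptors were called for that difference, beside 0.00566% of all genes, and 1 of 9, Chrm1, had an unadjusted p under 0.05 (0.0334).

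KO and WT were then compared within each tissue, which asks whether loss of full-length Adam19 went with a change in these receptors. In the lung, limma called 0 of 9 receptors, beside 0.0906% of all 16551 genes tested, and Chrm3 was the 1 receptor with an unadjusted p under 0.05. KO and WT lungs did not overlap for 2 of 9 receptors, Chrm3 and Adra1a, beside 12.8% of all genes. In the heart, limma called 0 of the 7 receptors that passed the filter, beside 0.0980% of 15303 genes, and 0 had an unadjusted p under 0.05. None of the 7 had KO and WT hearts that did not overlap, beside 13.0% of all genes, while Chrm1, which was not tested, did. Among the other fits tried, limma-voom on summed transcripts also called 0 receptors in either tissue.

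The intervals of the KO minus WT differences show what sizes the 6 lungs leave possible. They were narrowest for Adra1a, at −0.11 (95% interval −0.46 to 0.25), and Chrm2, at 0.21 (−0.16 to 0.58), so that a change of 1 log2 unit lies outside both. Adrb3 was at 0.16 (−0.37 to 0.69) and Adra1d at 0.15 (−0.58 to 0.88), also within 1 log2 unit. Adrb1 was at 0.18 (−0.67 to 1.04), Adra1b at −0.10 (−1.03 to 0.83), Adra2a at 0.16 (−0.71 to 1.02) and Chrm1 at −0.36 (−1.54 to 0.83), and none of these 4 intervals excludes a 2-fold change. In the heart, Chrm2 was at −0.07 (−0.49 to 0.35), Adra1b at −0.07 (−0.54 to 0.41), Adra1a at 0.12 (−0.30 to 0.53) and Adrb1 at 0.26 (−0.12 to 0.65). Those are the 4 most abundant receptors of the heart, and each interval stays within 1 log2 unit. Adra1d was at 0.44 (−0.26 to 1.14), Chrm3 at 0.46 (−0.71 to 1.63) and Adrb3 at 0.40 (−1.42 to 2.21), which leave larger changes possible.

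Chrm3 in the lung had the largest genotype difference of the receptors that were tested. KO lungs were higher by 1.20 (SE 0.29, 95% interval 0.53 to 1.87, a 2.30-fold difference), with an unadjusted limma p of 0.00297 and an adjusted p of 0.783, and each KO lung lay above each WT lung. The adjusted p ran from 0.471 to 0.994 over the alternatives, so the difference was called in none of them. Leaving out 1 lung at a time moved it between 0.94 and 1.34. The size depended on how transcripts were summed to a gene. The estimated counts summed over Chrm3 transcripts were 30.4, 51.2 and 72.6 in WT lungs and 104.4, 119.5 and 60.0 in KO lungs. Brought to the scale of the gene table by each library's constant, these were 5.23, 5.96 and 5.91 in WT and 6.50, 6.28 and 6.21 in KO, still apart but closer, and limma on summed transcripts gave a difference of 0.65 (adjusted p = 0.784). In TPM, WT lungs were at 1.79 ± 0.48 and KO lungs at 4.18 ± 0.48 (mean ± SD, n = 3), a scale that also depends on the length of the transcript a read is assigned to.

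The distance between the 2 summaries moved with 1 transcript. The 4336-nucleotide Chrm3 transcript of 5 exons (ENSMUST00000187510.7) had 30.4, 49.1 and 69.1 counts in WT lungs and 62.2, 72.0 and 41.5 in KO lungs. A 1770-nucleotide transcript of 1 exon (ENSMUST00000063093.10) was at 0 in all 3 WT lungs and had 37.8, 43.6 and 18.5 counts in KO lungs, 35.2% of their Chrm3 counts. Its exon, chr13:9927265-9929034, holds little beyond the coding sequence (1767 of 1770 bases) and lies wholly inside the 3532-base last exon of the longer transcript, so that no base is its own. Hearts of both genotypes also had it, with 0, 7.6 and 3.7 counts in WT and 0, 15.0 and 8.6 in KO. The deposited gene value was below the summed value by 0.32 to 0.39 in the 3 WT lungs and above it by up to 0.26 in the KO lungs, and in hearts it was below in the 2 libraries in which the short transcript was at 0 and above in the other 4.

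**Figure D5:**
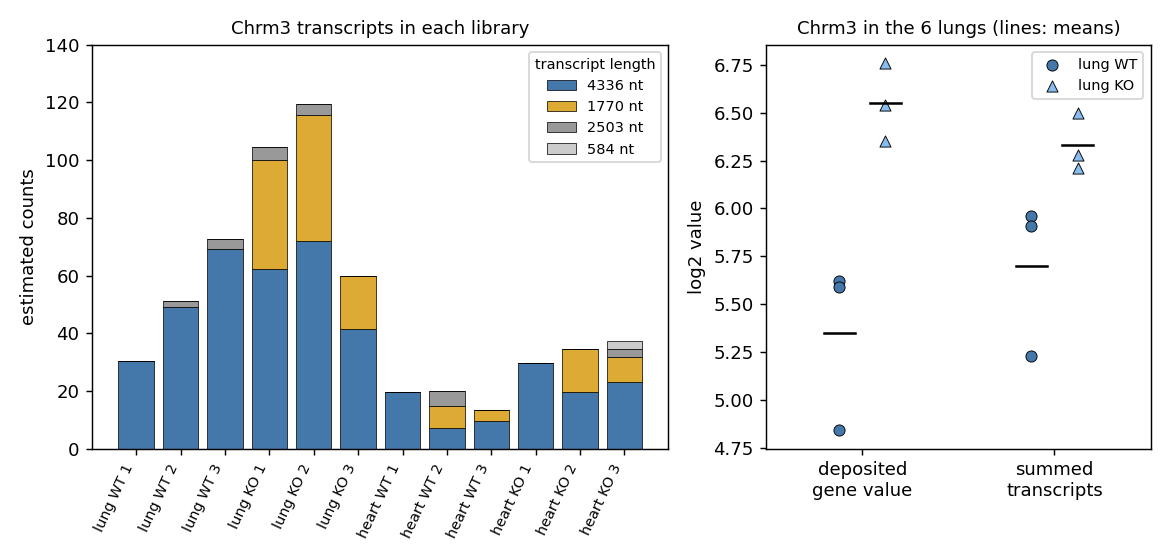
Left, estimated counts of the 4 Chrm3 transcripts in each of the 12 libraries, stacked from 0 and coloured by transcript length. Right, Chrm3 in the 6 lungs as the deposited log2 gene value and as the log2 of the summed transcript counts plus the library constant. The 1770-nucleotide transcript appears in 3 of 3 KO lungs and 0 of 3 WT lungs, and the gap between genotypes is smaller for the summed transcripts.

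Marker levels are given beside the lung Chrm3 values. The summed level of the 6 smooth muscle markers was 13.06 to 13.24 in WT lungs and 13.14 to 13.66 in KO lungs, that of the 4 airway epithelium markers was 17.50 to 18.28 and 18.27 to 18.54, and none of these 10 genes was at 0 in any lung. In both lists the genotypes overlapped in their summed level, although single genes were apart in either direction. Foxj1, a gene of ciliated cells, was at 9.44 to 9.62 in WT and 9.77 to 9.98 in KO lungs. Myocd, of the smooth muscle list, was lower in KO, at 6.47 to 7.09 in WT and 5.54 to 6.39 in KO lungs. Each of these lists had 1 gene with an unadjusted limma p under 0.05. The summed level of the 4 alveolar epithelium markers did not overlap, at 17.74 to 17.80 in WT lungs and 17.25 to 17.53 in KO lungs, with no marker at 0 and 2 of 4 genes at an unadjusted p under 0.05. Sftpc, the most abundant of the 4, was at 16.94 to 17.28 in WT and 16.32 to 16.58 in KO lungs. Hopx was also apart, at 13.49 to 13.56 and 12.61 to 13.08. Ager (14.83 to 15.12 and 14.47 to 15.05) and Sftpb (14.76 to 15.70 and 15.38 to 15.63) overlapped, and 1 of the 4 genes, Sftpb, had a higher mean in KO. Of the genes tested in the 3 lists, limma called 0 between KO and WT lungs. The part of cell composition in the Chrm3 values was not tested.

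In the heart, the 3 KO values of Chrm1 (2.39 to 3.65) lay above the 3 WT values (0 to 2.07), from 5.6 to 12.1 against 0 to 2.7 estimated counts, and the gene did not pass the filter. Neuron markers moved in the same way. The summed level of the 6 neuron markers was 6.99 to 8.12 in WT hearts, where 2 of 6 were at 0 in replicate 3, and 8.91 to 9.67 in KO hearts, where none was at 0. Of the 5 neuron markers tested, 0 were called and 4 had an unadjusted p under 0.05. Across the 6 hearts Pearson's r between the summed neuron markers and Chrm1 was 0.947 (exact permutation p = 0.00278, adjusted p = 0.10 over the 72 relations). For the 4 atrial markers r was 0.951 (exact permutation p = 0.0167, adjusted p = 0.40). Spearman's rho was 0.943 and 0.714 in turn. The summed atrial level overlapped between genotypes, at 14.80 to 16.57 in WT and 16.03 to 17.20 in KO hearts. Slc5a7, the choline transporter of cholinergic nerve endings, was at 4.18, 3.83 and 1.82 in WT hearts and 7.17, 6.07 and 5.87 in KO hearts, a difference of 3.09 (SE 0.64, limma adjusted p = 0.29) that was not called. The summed level of the 6 smooth muscle markers was 13.54 to 13.82 in WT and 14.18 to 14.40 in KO hearts. Of the 6, limma called 0, 5 had an unadjusted p under 0.05, and 5 were higher in KO. Myocd went the other way, at 11.27 to 11.50 in WT and 10.80 to 11.17 in KO hearts. The part of nerve, vessel or atrial tissue taken with each heart in the Chrm1 values was not tested.

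The other genes of the pathway were counted in 8 lists with 75 genes. Between genotypes, limma called 0 of the 66 tested in the lung and 0 of the 70 tested in the heart. Between tissues, 26 of 71 were higher in lung, beside 40.4% of all genes, and 23 were higher in heart, beside 25.6%. Of 10 G protein genes, 5 were higher in lung and 1 in heart (median lung minus heart 0.81), among them Gnai3, an inhibitory alpha subunit, at 1.80 (adjusted p = 1.16e-07), the beta subunit gene Gnb1 at 1.17 (adjusted p = 1.93e-05) and Gnaq, the alpha subunit that alpha-1, M1 and M3 receptors use, at 1.14 (adjusted p = 1.27e-07). Of 12 genes downstream of Gq, 6 were higher in lung and 0 in heart (median 0.58), with the phospholipase genes Plcb2 at 2.22, Plcb1 at 2.01 and Plcb3 at 1.36 and the inositol trisphosphate receptor gene Itpr3 at 1.88. Of 19 genes of adenylyl cyclase and protein kinase A signalling, 7 were higher in lung and 9 in heart (median −0.33). The anchoring proteins split, with Akap5 at 5.92 and Akap6 at −5.49, and the cyclase Adcy5 was at −3.66 and the phosphodiesterase Pde4a at −3.16. These medians stood beside a median of 0.31 over all genes.

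The counts for receptor desensitisation and transmitter handling stood beside the same shares of all genes. Of 12 desensitisation genes 5 were higher in lung and 2 in heart (median 0.43). The arrestin gene Arrb1 was at 2.64, and the 2 higher in heart were the G protein regulators Rgs5, at −3.93, and Rgs6, at −1.60. Of 9 noradrenergic genes tested, 2 were higher in lung and 3 in heart (median −0.53). Dbh, the last enzyme of noradrenaline synthesis, was at 0 in all 6 lungs and at 6.54 to 7.27 in hearts, while Slc6a2, the noradrenaline transporter, was at 7.93 or more in lungs and at 0 to 3.72 in hearts. Of 5 cholinergic genes tested, 1 was higher in lung and 4 in heart (median −2.90), among them Slc18a3, which loads acetylcholine into vesicles, at −3.02 and Ache, the enzyme that breaks it down, at −2.90.

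The genes whose pattern over the 12 libraries was most like each receptor were found by Pearson's r against 17666 genes. The points share libraries and fall into 2 tissues, so the tissue difference enters r. For the receptors with the widest tissue gap r was highest, with Abcb8 and Fem1a at 0.998 for Adra1b and Erbb4 at 0.998 for Chrm2. Adra1a was closest to 2410039M03Rik (0.985), Adrb3 to Gm53066 (0.983) and Cib2 (0.982), and Adra2a to Haus6 (0.980). The top value was lower for Chrm1 (Nsg2, 0.935), Adrb1 (Vars, 0.931), Chrm3 (Lrfn1, 0.918) and Adra1d (Cplx1, 0.913).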

How the data were processed

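Lung and heart RNA of 3 WT and 3 KO mice gave 12 strand-specific total RNA libraries. The authors ran Salmon with the mm39 transcripts of GENCODE vM33 and deposited log2 values: a transcript table, which holds log2(1 + estimated count), and a gene table with a further constant for each library. The method behind the gene values is not given in the sources used here. Columns of other samples numbered 0.

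Members and lists were chosen with earlier results of these data known. The named genes are the 9 members, Adam19, the 3 genes of highest r per member, and of each list at most the 4 called with the largest change, plus any called between genotypes. Marker and alpha-2 genes outside that rule were named after their values were seen.

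Groups came from the labels. Gene values were tested with limma 3.58.1 in R 4.3.3 (lmFit and eBayes with trend), within each tissue and over 4 group means. A gene entered a test where 3 or more of its libraries reached 3.46, or log2(1 + 10). P-values were adjusted by Benjamini-Hochberg. TPM values divide estimated counts (2 to the power of the transcript value, minus 1) by GENCODE vM39 length, scaled over genes with a coding transcript. From 0.34% to 0.78% of those counts had no length. A list's summed level is the log2 of the sum of its genes' values on the linear scale. The lung and heart of a mouse were matched by the mouse identifiers in the titles, a pairing that the main fits did not use. Deviations from the group means over 17666 genes correlated at 0.049, 0.136 and −0.024 in WT mice and 0.020, −0.068 and −0.036 in KO mice. The fits were tested on simulated data. Loci, exons and sequences came from GRCm39 with the GENCODE vM39 annotation. Copies were searched with blastn 2.17.0, and figures and sequences were made with Python 3.11.15 and Biopython 1.88. The study's limit of 6 on the highest group mean was an alternative. The depth, 17674788 to 35862932 estimated counts, gives few counts for Chrm1 and Adra2a.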

Additional observations from a re-analysis of the deposited data

How the results depend on the processing

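All 9 receptors kept their lung against heart direction in the limma fits tried, while in TPM, which was not fitted, Adra1d had the higher median in lung. Of the 8 calls, those of Chrm1 and Chrm3 were lost under quantile normalization (6 called). Filtering in every library left Adra2a and Chrm1 untested, and a highest group mean of at least 6 left 2 called higher in lung and 4 higher in heart. No receptor was called between genotypes under any alternative. The replicate block by mouse changed no receptor's call between tissues, still 8 called, and moved the genes called for the difference of genotype effects from 1 to 2. With that block limma's adjusted p between tissues rose for Chrm2 (7.97e-08), Adra1b (9.8e-08) and Adra1a (8.91e-05), among others. It fell for Adrb3 (0.000731) and Chrm3 (0.011). The cause of the changes below was not tested. Over all genes, filtering in every library moved the genotype calls from 15 to 1 in lung and from 15 to 7 in heart, and 1 fit of 12 libraries gave 27 in heart. The difference of genotype effects had 4 without a variance trend and 0 after quantile normalization. Leaving out 1 library at a time gave 10 to 14 genes in lung, 11 to 23 in heart (23 without KO replicate 2), 11648 to 11954 between tissues and 0 to 6 for the difference of effects.

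Receptors with no call changed sign as follows. For KO minus WT in lung, leaving out 1 library gave −0.32 to 0.17 for Adra1b, −0.03 to 0.35 for Adra1d, −0.03 to 0.43 for Adra2a, −0.23 to 0.52 for Adrb1 and −0.63 to 0.19 for Chrm1. In heart it gave −0.27 to 0.10 for Chrm2, −0.35 to 1.09 for Adrb3, −0.19 to 0.18 for Adra1b and −0.07 to 0.26 for Adra1a. For the difference of effects it gave −0.49 to 0.26 for Adrb1, −0.28 to 0.24 for Adra1b, −0.93 to 0.51 for Adrb3, −1.18 to 0.34 for Adra2a and −0.51 to 0.01 for Adra1d. There, summed transcripts gave 0.02 for Adrb1, and limma-voom gave 0.05 for Adrb1, 0.09 for Adrb3 and 0.01 for Adra1b. Comparisons within a genotype were chosen after seeing the data and called 4 to 8 receptors in WT and 5 to 7 in KO: lung minus heart in WT was −0.33 for Chrm3 after quantile normalization and −0.01 for Adrb1 with limma-voom (−0.08 to 0.67 leaving out 1 library), and in KO it was −0.12 for Chrm1 after quantile normalization and −0.04 to 0.41 for Adrb1.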
